A study of Mus musculus with 88 samples.

Results

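The comparison described here was between 4 mouse embryonic stem cell (ESC) lines derived in t2i medium and 4 lines derived in serum medium. These 8 RNA-seq libraries were chosen by their labels, out of 26 RNA-seq libraries and 88 samples in all. The t2i lines were XX lines 1 and 3 and XY lines 2 and 6, and the serum lines were XX lines 17 and 46 and XY lines 10 and 16. All 8 lines were F1 ESCs of 129X1/SvJ and C57BL6 parentage, sampled at passage 3, and each library came from a separately numbered line. The labels do not say more of how the lines relate, so p-values measure the spread between these lines. Each medium and sex had 2 lines, so XX and XY lines were weighted equally in every contrast. The titles of the t2i XX lines carry the prefix 0.2, written without the point for the t2i XY lines. The name t2i stands for 2i with the MEK inhibitor titrated down. The 4 lines each in 2i and a2i medium of the same cross entered the fit to estimate the spread between lines. Values are the authors' RPKM (reads scaled by transcript length and by the mapped reads of a library), and differences are t2i minus serum on the log2(RPKM + 1) scale, which understates the change of low genes.

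Mouse ESCs secrete Fgf4, which signals through the RAS, MEK and ERK kinases. ERK activity switches on immediate early genes and feedback inhibitors and readies the cells to leave the naive state, whereas 2i medium blocks MEK and GSK3 and holds the cells close to the inner cell mass. Strong MEK inhibition is also known to lower DNA methylation in ESCs, and t2i was designed with a weaker dose for that reason. The comparison with serum asks how far t2i lines stand from lines derived without inhibitors.

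The serum libraries carried fibroblast RNA. The median ratio of 16 fibroblast genes to their level in 2 mouse embryonic fibroblast (MEF) libraries of the series was 8.54% and 12.5% in serum XX lines 17 and 46, and 11.2% and 13.4% in serum XY lines 10 and 16. It was at most 0.0282% in the 4 t2i libraries. The summed level of the 16 genes was 7.02 to 11.0 RPKM in t2i and 1034 to 1581 RPKM in serum, and 3 to 7 of them were listed at 0 in each t2i library. Called genes were therefore kept only where the expected fibroblast RNA was under 20% of the mean serum level and where the call held after that RNA was subtracted. The limit was applied in both directions. Subtraction lowers almost only the serum level and so enlarges a rise in t2i, yet raised genes at or past the limit were set aside too. In bulk RNA, fewer cells of a type and less RNA per cell cannot be told apart. The MEF libraries, titled XX and XY, come from another cross (MSM) and from a lower passage than the ESC lines. No RNA-seq library is labelled as feeder cells. Highest single ratios of the list reached 41.7% to 61.3% in the serum libraries, and a second rule, chosen after seeing the data, used these highest ratios in place of the median.

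Across the 13150 genes tested with limma, 5757 were called at a Benjamini-Hochberg adjusted p under 0.05 (43.8%), 2010 higher in t2i (15.3%) and 3747 lower (28.5%). The fibroblast rule kept 3570 (27.1%), 1874 higher (14.3%) and 1696 lower (12.9%), and the stricter rule kept 694 and 825. The median difference over all genes was -0.07 as deposited, 0.09 after quantile normalization, 0.13 after equalizing autosomal medians and 0.10 after subtracting the fibroblast share. The split of calls moved with it, to 3755 higher and 2517 lower, 4327 and 2617, and 3437 (26.6% of 12898 genes) and 2184 (16.9%), while subtraction followed by rescaling gave 1797 and 3093 with a median of -0.06. The kept calls moved as well, to 2105 higher and 1375 lower under quantile normalization and 2493 and 1393 with equal autosomal medians. With rescaled subtraction the kept split reversed, to 1317 higher and 2117 lower. Small differences are therefore read with these medians in view. Each list count below is read with the shares of 15.3% higher and 28.5% lower over all genes. Replicate lines of the same medium and sex correlated at a Pearson r of 0.986 to 0.992 across genes, which are not independent replicates. The depth of the libraries is unknown, since the table gives RPKM only.

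ESC identity was shared by both media. Pou5f1, the central pluripotency factor, was at 1898, 2021, 1555 and 1605 RPKM in t2i XX lines 1 and 3 and XY lines 2 and 6, and at 1656, 1435, 1332 and 1235 RPKM in serum XX lines 17 and 46 and XY lines 10 and 16. All further per-line values follow this order. The ranges overlapped, and the difference of 0.32 (SE 0.08, limma adjusted p = 0.0066) was lost under quantile normalization, under rescaled subtraction and in the XY lines alone. Of 6 ESC identity genes, 2 were higher in t2i, beside 15.3% of all genes, none was lower and the median was 0.22. Nanog differed by 0.22 (adjusted p = 0.065 in limma) and Esrrb by 0.15 (adjusted p = 0.31), neither past the threshold.

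**Figure D1:**
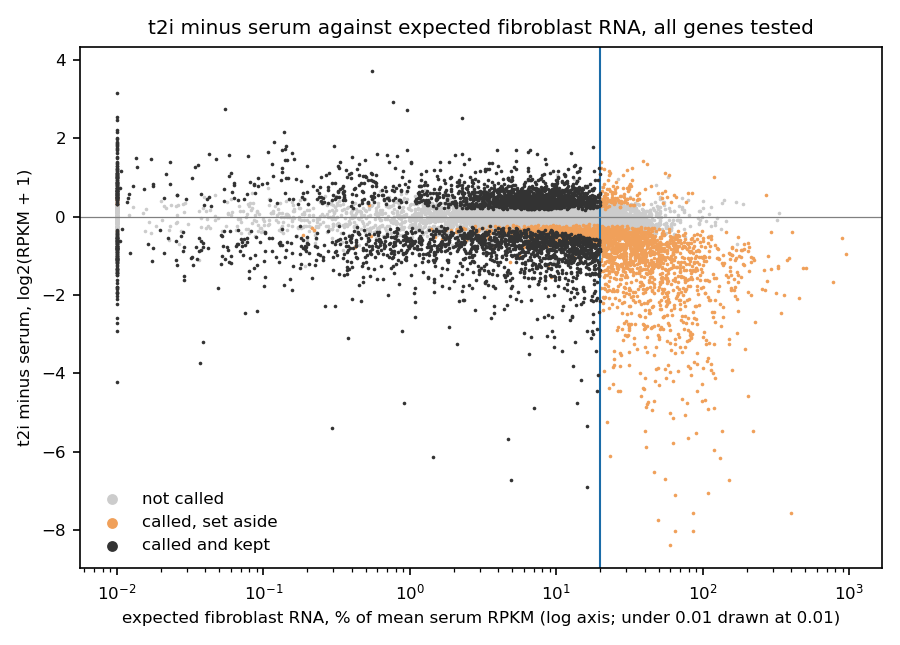
Expected fibroblast RNA in the serum libraries, as a percent of each gene's mean serum RPKM, against the t2i minus serum difference in log2(RPKM + 1), with 1 dot per tested gene. Calls at or past the 20% limit lie almost wholly on the lower side, where 1464 genes were called lower against 126 called higher.

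Immediate early genes, the transcription factors that growth factor signalling induces within minutes, fell together. All 13 tested members were lower in t2i, beside 28.5% of all genes, and 11 were kept. The median was -2.36, and -1.73 after subtraction. All 13 remained called lower in each fit without 1 of the 8 lines. The stricter fibroblast rule kept 4, namely Fos, Fosb, Ier2 and Atf3. Some immediate early promoters hold a CArG box, the element bound by serum response factor. Promoters of RefSeq GRCm38.p6, 250 bases before to 50 after each start, are printed for the members of this group and of the ERK feedback group in which a CArG box was found, because both groups are known serum response targets. Capitals mark the CArG box, searched on both strands.
Egr2, chr10:67537316-67537615, plus strand: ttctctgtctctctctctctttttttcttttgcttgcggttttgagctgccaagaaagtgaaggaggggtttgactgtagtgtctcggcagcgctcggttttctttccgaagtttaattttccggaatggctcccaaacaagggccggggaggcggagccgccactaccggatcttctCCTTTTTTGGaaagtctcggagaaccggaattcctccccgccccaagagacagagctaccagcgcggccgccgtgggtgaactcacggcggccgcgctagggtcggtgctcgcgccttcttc
Srf, chr17:46556113-46556412, minus strand: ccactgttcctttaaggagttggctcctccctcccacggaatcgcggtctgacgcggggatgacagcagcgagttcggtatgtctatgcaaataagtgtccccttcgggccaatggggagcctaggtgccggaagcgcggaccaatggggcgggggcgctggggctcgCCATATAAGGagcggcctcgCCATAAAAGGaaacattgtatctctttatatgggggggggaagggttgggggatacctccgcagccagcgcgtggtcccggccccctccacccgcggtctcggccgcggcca
Dusp5, chr19:53528895-53529194, plus strand: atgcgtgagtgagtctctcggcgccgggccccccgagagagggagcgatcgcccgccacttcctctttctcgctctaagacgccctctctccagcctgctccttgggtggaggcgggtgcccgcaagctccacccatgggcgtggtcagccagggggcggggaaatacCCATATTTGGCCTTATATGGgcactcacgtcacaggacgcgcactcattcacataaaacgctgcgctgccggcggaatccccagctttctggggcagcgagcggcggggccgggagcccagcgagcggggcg
The Egr2 window holds 1 box, the Srf window 2 separate boxes and the Dusp5 window 2 adjoining boxes, all within 82 bases before the start. Egr2 has 5 such windows, of which 4 hold a box. For each gene the printed window is the box-holding one whose start lies nearest the 5' end of the locus in the authors' values. That start lies 2091 bases from this end for Egr2, 36 for Dusp5 and 0 for Srf. A CArG box was found for 2 of 10 immediate early genes with a promoter (20%), for 1 of 10 ERK feedback genes (10%) and for 488 of 27025 genes overall (1.81%). The 2 groups hold 14 and 16 genes, so some members had no promoter to search. A gene counted if any of its windows held a box, and bases outside the windows were not searched. A match is a description of these letters only.

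Fos, a subunit of the AP-1 factor and encoded at chr12:85473890-85477273 (mm10), was at 1.43, 1.85, 0.551 and 0.927 RPKM in t2i and at 261, 261, 90.3 and 79.7 RPKM in serum. The groups did not overlap, and both serum XX lines stood above both serum XY lines. The difference was -6.14 (SE 0.16, adjusted p = 1.0e-11 in limma), and fibroblasts would account for 1.44% of the serum level. Fosb, its close relative, was at 0.0697, 0, 0.229 and 0.181 RPKM in t2i and 66.5, 85.4, 31.8 and 25.1 RPKM in serum. It showed the same order, with a difference of -5.40 (SE 0.12, adjusted p = 2.3e-12). Egr1, a zinc finger factor downstream of ERK, was at 0.0437, 0, 0.0899 and 0.069 RPKM in t2i and at 78.3, 82.8, 33.4 and 34.7 RPKM in serum. It was close to 0 in every t2i line, with a difference of -5.67 (SE 0.14, adjusted p = 5.2e-12). Egr2, the zinc finger relative whose promoter is printed above, was listed at 0 in 3 t2i lines and at 0.0259 RPKM in XY line 2, against 6.44, 10.2, 3.55 and 2.9 RPKM in serum.

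Jun, the partner of Fos in AP-1, was at 3.36, 2.12, 0.384 and 1.05 RPKM in t2i and at 37.5, 52.8, 28.4 and 24 RPKM in serum. The difference was -3.82 (adjusted p = 2.0e-09 in limma), with 12.9% of the serum level expected from fibroblasts. Srf itself, the factor that binds the CArG box, changed far less, from 16.6, 20.9, 17.6 and 15 RPKM in serum to 12.1, 8.96, 7.63 and 7.69 RPKM in t2i. The lowest serum line still lay above the highest t2i line, and the difference was -0.89 (SE 0.13, adjusted p = 1.6e-04). Ier2 fell by 0.77 and Btg2 fell by 1.04, so the group ranged widely in size. Klf6 and Fosl1 were called lower but set aside, with 45.3% and 50.7% of their serum level expected from fibroblasts. Both stayed called lower after subtraction, at -0.50 and -1.56.

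**Figure D2:**
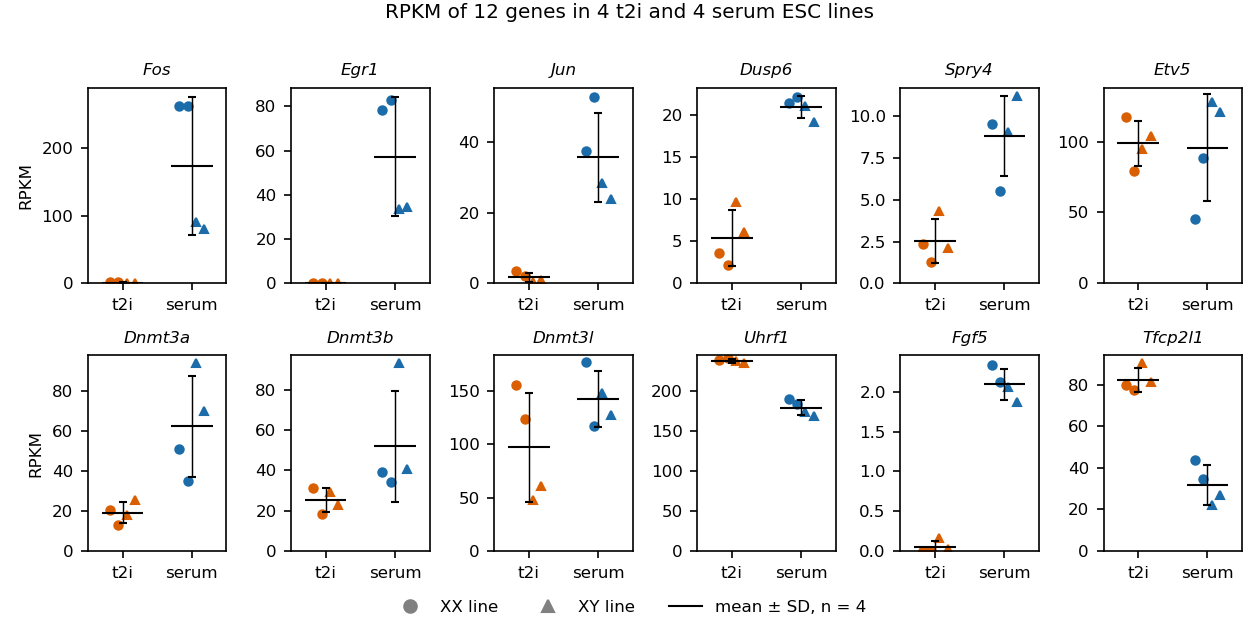
RPKM of single genes in each t2i and serum line, with the mean and SD of the 4 lines of a medium and XX and XY lines marked. Fos and Egr1 are near 0 in all 4 t2i lines, while Dusp6 is low but measurable in t2i.

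ERK feedback genes and ETS targets were lower too, yet they did not vanish. Of 16 tested, 14 were lower, beside 28.5% of all genes, none was higher and 7 were kept, beside 12.9% kept lower of all genes, 1 under the stricter rule, and the median of -1.37 became -0.56 after subtraction. Dusp6, the phosphatase that inactivates ERK, was at 3.65, 2.18, 9.7 and 6.05 RPKM in t2i and at 21.4, 22.2, 21.1 and 19.2 RPKM in serum. The difference was -1.92 (SE 0.21, adjusted p = 1.3e-05 in limma), and the t2i XY lines lay above the t2i XX lines. Spry4, an inhibitor of receptor signalling upstream of ERK, was at 2.36, 1.29, 4.35 and 2.11 RPKM in t2i and at 9.52, 5.53, 9.06 and 11.2 RPKM in serum, a difference of -1.51 (SE 0.31, adjusted p = 0.0018). Dusp5, a nuclear ERK phosphatase whose promoter is printed above, went from 13.5, 10.4, 8.65 and 8.17 RPKM in serum to 2.56, 2.53, 0.982 and 1.52 RPKM in t2i.

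Not every ETS target moved. Etv5 was at 117, 78.9, 94.9 and 104 RPKM in t2i and at 45.3, 88.6, 128 and 121 RPKM in serum, overlapping fully, and its difference of 0.14 missed the threshold (adjusted p = 0.6 in limma). Etv4 fell by 1.23 (SE 0.26, adjusted p = 0.002) and was the member kept under both fibroblast rules. Dusp4, Spry1, Spred1, Myc, Ccnd1, Phlda1 and Ier3 were called lower and set aside. After subtraction Spry1, Spred1, Phlda1 and Ier3 stayed called lower, whereas Dusp4, Myc and Ccnd1 did not.

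The t2i lines can be set against 2i lines in the same fit, in a contrast of t2i and 2i means to which the serum lines add only to the estimate of spread. Of 13150 genes, 1062 were called (8.08%), 551 higher in t2i (4.19%) and 511 lower (3.89%). The count fell to 569 without t2i XY line 2, 575 without t2i XY line 6 and 599 without t2i XX line 1. None of the 13 immediate early genes was called in it, with a median of -0.04. Of the 16 ERK feedback genes, 3 were higher in t2i than in 2i and none was lower. Dusp6 was 0.85 higher in t2i than in 2i (adjusted p = 0.03 in limma) and Spry4 1.35 higher (adjusted p = 0.02), with mean 2i levels of 0.336 RPKM for Spry4 against 2.53 RPKM in t2i and 8.83 RPKM in serum.

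De novo DNA methyltransferases were lower in t2i than in serum. Of 6 methylation writers, 3 were lower, 1 was higher and all 4 were kept under both fibroblast rules, with a median of -0.32. Dnmt3a, which methylates unmodified DNA, was at 20.6, 12.7, 18.1 and 25.2 RPKM in t2i and at 50.7, 34.9, 93.5 and 69.7 RPKM in serum. No line overlapped, and the difference was -1.60 (SE 0.19, adjusted p = 2.4e-05 in limma). Dnmt3b, its partner enzyme, was at 31.1, 18.1, 29.4 and 22.7 RPKM in t2i and 39, 34.4, 93.3 and 40.9 RPKM in serum. Serum XY line 10 stood well above the other serum lines, the difference was -0.92 (SE 0.23, adjusted p = 0.0062), and it was not past the threshold in the XX lines alone.

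Dnmt3l, the cofactor that stimulates both enzymes, separated by sex. It was at 156 and 124 RPKM in the t2i XX lines, at 48.1 and 60.9 RPKM in the t2i XY lines, and at 177, 117, 148 and 128 RPKM in serum. The t2i XX lines lay within the serum range and the t2i XY lines below it. The medium difference was -0.05 in XX and -1.33 in XY lines, and the difference between the sexes was 1.28 (adjusted p = 0.027 in limma). Against 2i, Dnmt3a was 0.67 higher in t2i (adjusted p = 0.048) and Dnmt3l 0.87 higher (adjusted p = 0.0024).

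Maintenance genes moved the other way or not past the threshold. Uhrf1, which brings Dnmt1 to replicating DNA, was at 239, 241, 237 and 235 RPKM in t2i and at 190, 184, 174 and 169 RPKM in serum. The lines of each medium were close together and the groups did not overlap, with a difference of 0.41 (SE 0.10, adjusted p = 0.0046 in limma) that was lost under rescaled subtraction and in the XX lines alone. Dnmt1 differed by 0.22 (adjusted p = 0.13). Among 9 erasers and imprint guardians, 3 were higher and 4 lower. Tet1, which oxidizes methylcytosine, fell by 0.57 (adjusted p = 0.0053), a call lost in the XY lines alone. Zfp57, a zinc finger protein that protects imprints, was higher by 0.55 on average (adjusted p = 4.6e-04), by 0.09 in XX (adjusted p = 0.63), with a larger difference in XY lines (adjusted p = 9.1e-05).

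Of 14 naive factors, 5 were higher and kept, beside 15.3% of all genes, 1 was lower and 8 were not called, with a median of 0.18, and quantile normalization gave 5 higher and 3 lower. The lower one, Klf4, was called without t2i XX line 1 but in no other fit that left out 1 line. In XY lines 7 were higher and none lower, with a median of 0.49, and in XX lines 2 were higher and 2 lower, with a median of 0.14. Tfcp2l1, a factor of the naive network, was at 79.9, 77.6, 90.7 and 81.5 RPKM in t2i and at 43.6, 34.8, 22 and 26.7 RPKM in serum. It was higher in every t2i line, by 1.39 (SE 0.14, adjusted p = 4.9e-06 in limma). Tcl1 rose by 0.65, Fgf4 by 0.58, Zfp42 by 0.38 and Nr5a2 by 0.37, of which only Nr5a2 did not overlap between the groups, and the calls of Fgf4, Zfp42 and Nr5a2 were lost in the XX lines alone.

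For 4 naive factors, Klf2, Klf4, Klf5 and Tbx3, the medium difference differed by sex, beside 3.15% of all genes. None of the list was called so without t2i XY line 2 or without serum XX line 17, 1 was without t2i XY line 6 or serum XY line 10, and 2 were without serum XY line 16 or either t2i XX line. Klf4, a target of LIF signalling, was at 84.4 and 91.9 RPKM in t2i XX, 151 and 139 RPKM in t2i XY, 248 and 245 RPKM in serum XX and 99.9 and 110 RPKM in serum XY lines. It was lower in t2i among XX lines and higher among XY lines, and the difference between the sexes was -1.94 (adjusted p = 0.016 in limma). Tbx3, another factor of the LIF network, was at 50.8, 41.2, 37 and 31.6 RPKM in t2i and at 75.8, 72.2, 15.6 and 9.92 RPKM in serum. The serum XX lines were highest and the serum XY lines lowest, with a difference between the sexes of -2.07 (adjusted p = 0.015). Klf2 and Klf5 gave -1.22 (adjusted p = 0.036) and -0.78 (adjusted p = 0.033).

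Among 10 core pluripotency genes 4 were lower and 1 higher, beside 28.5% and 15.3% of all genes. Without t2i XY line 6, 2 were higher. Utf1, a chromatin-bound factor of ESCs, was at 188, 155, 154 and 165 RPKM in t2i and at 274, 309, 342 and 369 RPKM in serum. All serum lines were above all t2i lines, by 0.96 on the log2 scale (limma difference -0.96, adjusted p = 7.1e-06). Lin28a, which blocks maturation of let-7 microRNAs, was at 47.4, 32.9, 86.8 and 79.7 RPKM in t2i and at 81.5, 73.6, 133 and 140 RPKM in serum. The serum lines were higher within each sex, and the difference was -0.83 (adjusted p = 0.0024). Lin28a was 1.15 higher in t2i than in 2i (adjusted p = 0.0023), and Utf1 0.81 higher.

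Formative and primed epiblast genes were lower in t2i in 12 of 14 cases, with 10 kept, 8 under the stricter rule, and a median of -1.02. Fgf8, a growth factor of the epiblast, was at 0.367, 0.086, 0.297 and 0.307 RPKM in t2i and at 6.71, 9.7, 21.1 and 8.77 RPKM in serum. Every serum line was far above every t2i line, a difference of -3.20 in limma. Fgf5, the classical marker of the primed epiblast, was at 0, 0, 0.16 and 0.0283 RPKM in t2i and at 2.34, 2.12, 2.06 and 1.87 RPKM in serum, so it was low in both media. Otx2, which directs the exit from the naive state, was at 5.65, 9.43, 3.92 and 5.29 RPKM in t2i and at 26.2, 14.3, 8.03 and 11.6 RPKM in serum. The groups overlapped, the difference was -1.12 (SE 0.21, adjusted p = 0.001), and Otx2 was also 1.02 lower in t2i than in 2i (log2 difference -1.02, adjusted p = 0.012).

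**Figure D3:**
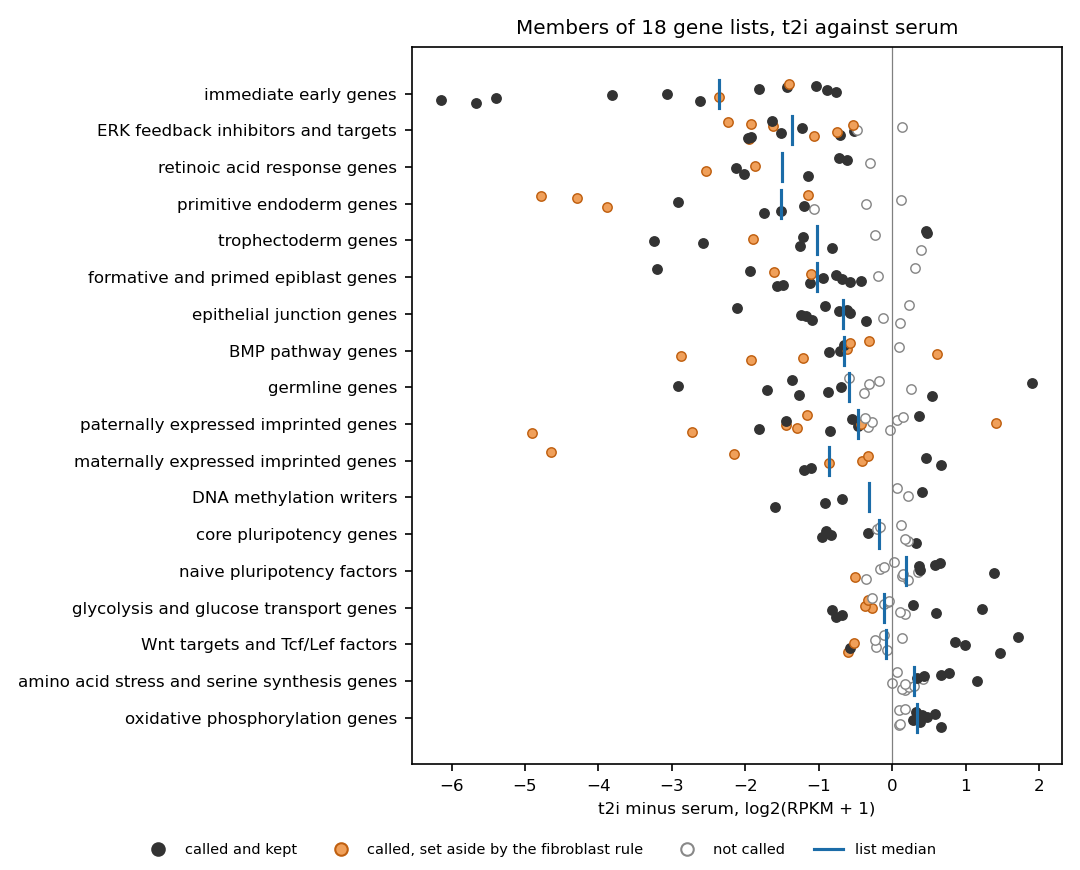
Differences between t2i and serum for the members of 18 gene lists, in log2(RPKM + 1), with 1 dot per tested gene, black for kept calls, orange for calls set aside by the fibroblast rule and white for genes not called. The blue line is the median of each list, at -2.36 for immediate early genes and 0.18 for naive factors.

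Wnt targets, which GSK3 inhibition is known to switch on, moved in both directions. Of 12 tested, 4 were higher and 3 lower, with a median of -0.09 that turned to 0.13 after subtraction. Axin2, the feedback inhibitor that marks active β-catenin, was at 8.86, 6.16, 23.5 and 18 RPKM in t2i and at 3.34, 2.92, 5.12 and 4.31 RPKM in serum. All t2i lines were higher, by 1.47 (SE 0.19, adjusted p = 5.1e-05 in limma). Notum, a secreted enzyme that inactivates Wnt, was at 62.1, 35.6, 56.6 and 45.2 RPKM in t2i and at 33.6, 15.3, 8.44 and 8.76 RPKM in serum, higher by 1.72 (adjusted p = 2.6e-04), a call lost in the XX lines alone. The calls of Sp5 and Cdx1, at 0.99 and 0.86, were each lost in 5 of the 8 fits without 1 line. For Sp5 these left out t2i XX 1, t2i XY 2, serum XX 17, serum XX 46 or serum XY 16, and for Cdx1 t2i XX 1, t2i XY 2, serum XX 46, serum XY 10 or serum XY 16.

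Ligands and targets of the other pathways differed less evenly. Of 8 Nodal pathway genes, 3 were lower and 1 higher, with a median of -0.04. Lefty1, a secreted Nodal inhibitor, was at 70.6, 63.1, 39.8 and 30.7 RPKM in t2i and at 111, 125, 197 and 169 RPKM in serum, without overlap, and differed by -1.58 (adjusted p = 8.2e-04 in limma), by -0.81 in XX (adjusted p = 0.16) and -2.35 in XY lines. Nodal itself, the ligand, differed by 0.03 (adjusted p = 0.8). Of 11 BMP pathway genes, 9 were lower and 1 higher, but 3 were kept and none under the stricter rule. The number lower ranged from 6 (without serum XY line 10) to 9 (without t2i XX line 1). Quantile normalization gave 5 lower and 2 higher. Id1 and Id3, targets of BMP signalling, had 57.4% and 39.5% of their serum level expected from fibroblasts and were set aside. After subtraction Id1 differed by -0.53 (adjusted p = 0.32 in limma) and Id3 still by -2.12 (adjusted p = 0.0031). Of 9 LIF and STAT3 genes, 4 were lower, beside 28.5% of all genes, and none higher, but after subtraction 3 were lower and 2 higher, and Jak1 turned from -0.81 to 0.26. Their median of -0.12 ranged from -0.32 without serum XX line 46 to -0.04 without serum XY line 16. Socs3, the feedback inhibitor of the pathway, differed by -0.11 (adjusted p = 0.64). YAP and SRF cytoskeletal targets were lower in 15 of 16 cases, none was kept, and 15 were at or above the fibroblast limit. After subtraction 9 of the 16 were called lower, beside 16.9% of all genes.

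Epithelial genes were lower in t2i in 9 of 12 cases, all 9 kept, 8 under the stricter rule, with a median of -0.67. Esrp1, a splicing regulator of epithelial cells, was at 2.08, 2.78, 6.46 and 8.22 RPKM in t2i and at 18.2, 15.7, 28.9 and 27.9 RPKM in serum. The groups did not overlap, and the difference was -2.11 (SE 0.16, adjusted p = 3.2e-07 in limma). Cldn6, a tight junction protein of ESCs, was at 25.2, 13, 26.4 and 30.8 RPKM in t2i and at 45.1, 39, 63.5 and 69.2 RPKM in serum, a difference of -1.18 (adjusted p = 1.0e-04). Cdh1, the adhesion protein of ESC colonies, differed by 0.10 (adjusted p = 0.39). Relative to 2i, Cldn6 was 1.65 higher in t2i (adjusted p = 3.2e-04) and Esrp1 1.22 higher (adjusted p = 8.4e-04).

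Markers of the first embryonic lineages were measured as well. Among 10 trophectoderm genes, 6 were lower, beside 28.5% of all genes, and 2 higher, and 1 was higher in the 5 fits that left out serum XY line 10 or 16, t2i XY line 2 or 6, or t2i XX line 1. The keratin pair of simple epithelia moved together, with Krt18 at 4.39, 6.69, 6.11 and 5.6 RPKM in t2i and at 77.7, 63.8, 86.5 and 34.2 RPKM in serum. Krt18 differed by -3.24 (SE 0.22, adjusted p = 1.3e-07 in limma) and Krt8 by -2.57, both kept under both rules. Of 11 primitive endoderm genes, 8 were lower, 3 were not called, 4 were kept and the median was -1.52. Serum XY line 10 stood apart for this lineage. Gata4, a master factor of primitive endoderm, was at 16.3 RPKM in that line against 1.99 to 2.84 RPKM in the other serum lines and 0.355 to 0.8 RPKM in t2i. Sox17, which acts in the same lineage, was at 7.62 RPKM there, at 0.328 to 1.41 RPKM in the other serum lines and at 0.108 to 0.603 RPKM in t2i. Without serum XY line 10, 8 genes were still lower, 3 were kept and the median was -1.15, and without serum XY line 16, 10 were lower, 6 were kept and the median was -1.93.

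Germline genes, many of them silenced by promoter methylation, went both ways. Of 13 tested, 6 were lower, beside 28.5% of all genes, and 2 higher, beside 15.3%. All 8 were kept under both rules, and the median was -0.59, or -0.34 without t2i XY line 2. Stra8, which licenses entry into meiosis, was at 4, 4.39, 1.01 and 2.25 RPKM in t2i and at 59.8, 32.7, 22.1 and 10.8 RPKM in serum. The difference was -2.91 (SE 0.26, adjusted p = 1.6e-06 in limma). Fkbp6, needed for meiosis and piRNA production, was at 37.4, 52.2, 13.6 and 13.1 RPKM in t2i and at 11.4, 14, 1.68 and 3.2 RPKM in serum, higher within each sex by 1.91 on average (adjusted p = 6.6e-07). Dazl, a translational regulator of germ cells, rose by 0.54 (adjusted p = 0.021), a call lost in 4 of the 8 fits without 1 line (t2i XX 3, t2i XY 6, serum XX 17 and serum XY 10). Dazl was 1.44 lower in t2i than in 2i (log2 difference -1.44, adjusted p = 5.5e-04).

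Several imprinted growth genes stood between 2i and serum. Of 9 maternally expressed genes, 7 were lower and 2 higher in t2i, and 4 were kept. Of 19 paternally expressed genes, 11 were lower, 2 higher and 6 kept. Phlda2, a maternally expressed brake on placental growth, was at 63.6, 66.4, 51.5 and 64.8 RPKM in t2i and at 55.3, 124, 210 and 219 RPKM in serum. Serum XX line 17 lay within the t2i range and the other 3 serum lines above it. The difference was -1.11 (SE 0.21, adjusted p = 0.0011 in limma), past the threshold in every fit except in the XX lines alone, and Phlda2 was 2.11 higher in t2i than in 2i (adjusted p = 3.2e-04), where its mean was 16.2 RPKM. Cdkn1c, a maternally expressed Cdk inhibitor of the same cluster, was at 7.97, 8.63, 4.8 and 6.22 RPKM in t2i and at 12.9, 14.8, 23.3 and 18 RPKM in serum. It differed by -1.20 from serum (adjusted p = 4.4e-05) and by 1.46 from 2i (adjusted p = 3.3e-04). Plagl1, a paternally expressed zinc finger gene, was at 28.2, 27.5, 9 and 7 RPKM in t2i and at 6.73, 12.5, 3.38 and 1.91 RPKM in serum. It was 1.41 higher than in serum, set aside at 38.9% expected fibroblast RNA, and 1.47 lower than in 2i (log2 difference -1.47). Its call against serum held in every alternative fit, at 1.21 to 2.24. Peg10, a paternally expressed gene of placental development, fell by 1.81 (adjusted p = 1.8e-05) and was kept under both rules.

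Of 12 oxidative phosphorylation genes, 8 were higher, beside 15.3% of all genes, and none lower, with a median of 0.34. All 8 were kept but none under the stricter rule. After subtraction 10 were higher, beside 26.6% of all genes, with a median of 0.46. Of 13 amino acid stress and serine synthesis genes, 5 were higher, none lower and 8 not called, with a median of 0.30, -0.07 in XX and 0.61 in XY lines, and 1 was kept under the stricter rule. Without t2i XX line 1, 9 were higher with a median of 0.47, and without t2i XX line 3 the median was 0.12. Asns, asparagine synthetase, was at 745, 908, 894 and 997 RPKM in t2i and at 417, 459, 336 and 372 RPKM in serum. All t2i lines lay above all serum lines, by 1.16 (SE 0.09, adjusted p = 2.9e-07 in limma). The metallothioneins, which bind zinc and copper, were higher too. Mt1 was at 1373, 1344, 970 and 1067 RPKM in t2i and at 394, 473, 431 and 568 RPKM in serum, and Mt2 rose by 1.28. Cholesterol synthesis genes had 6 lower and 1 higher of 17, beside 28.5% and 15.3% of all genes, and none was kept. Their median of -0.20 became 0.26 after subtraction and -0.11 without serum XX line 46. Of 8 retinoic acid response genes, 7 were lower, 5 kept and 1 under the stricter rule. Crabp2, a retinoic acid carrier, fell by 2.13 and Rarg, a receptor, by 2.02.

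Among genes outside the lists that met the naming rule given below, the most raised was Pglyrp1. It encodes a secreted peptidoglycan recognition protein (chr7:18871331-18890459, mm10). It was at 43.1, 26, 25.1 and 40 RPKM in t2i and at 1.29, 1.67, 1.28 and 1.99 RPKM in serum. The lowest t2i line was far above the highest serum line, and the difference was 3.72 (SE 0.19, adjusted p = 6.6e-09 in limma). Gpx2, a glutathione peroxidase, was at 87.2, 70.8, 124 and 128 RPKM in t2i and at 15.6, 10.7, 14.1 and 28.8 RPKM in serum, a difference of 2.54. Fetub, a secreted protease inhibitor, was near 34 RPKM in all t2i lines, at 34.3, 34.5, 34.3 and 33.8 RPKM, and at 9.71, 8.05, 2.77 and 2.86 RPKM in serum. The t2i lines were alike and the serum lines differed by sex. Spic, an ETS family factor, rose by 2.15, and Slc4a5, Trpm1, Ppp1r14d, Ubd, Crxos, Pgc, Klk1 and Slc30a2 by 1.80 to 2.74.

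The 12 most lowered kept genes held Fos, Egr1, Fosb and 9 others. Tnc, the matrix protein tenascin C, was at 0.028, 0, 0.00961 and 0.00983 RPKM in t2i and at 127, 88.5, 114 and 159 RPKM in serum. Mgp and Mmp3 were listed at 0 in all 4 t2i lines, against 42.2, 138, 119 and 166 RPKM for Mgp in serum and 18.5, 24.9, 15.5 and 61.2 RPKM for Mmp3. Car4, a membrane carbonic anhydrase, was at 0.234, 0.277, 0 and 0.123 RPKM in t2i and at 17.8, 20, 32 and 15.2 RPKM in serum, and was listed at 0 in the MEF libraries. Tnc, Mgp, Ltbp2, Rgs16, Tmem176a, Ecm1, Serpine2 and Egr1 were not kept under the stricter rule. The part of fibroblast RNA in the matrix genes beyond these shares was not tested.

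**Figure D4:**
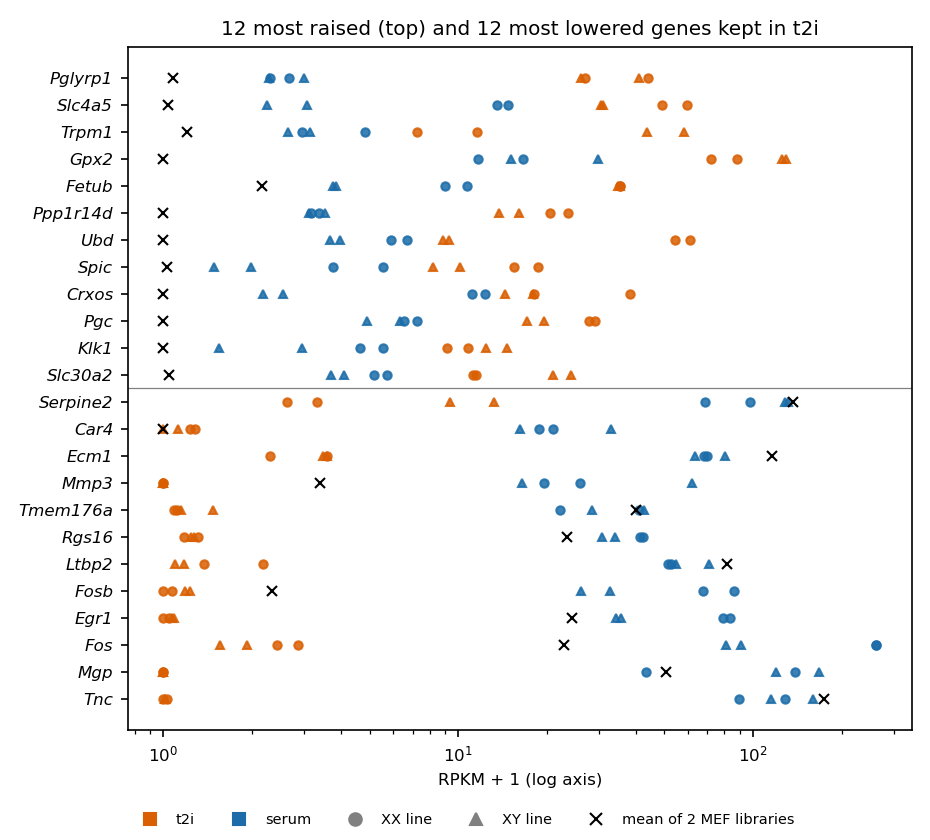
The 12 most raised and 12 most lowered kept genes, with 1 symbol per line on a log axis of RPKM + 1 and crosses for the mean of 2 MEF libraries. Pglyrp1 is at 25.1 to 43.1 RPKM in t2i against 1.28 to 1.99 RPKM in serum, and Tnc is near 0 in t2i but high in both serum and MEF libraries.

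The response to medium differed between XX and XY lines for 414 of 13150 genes (3.15%), 227 with the larger value in XX and 187 in XY. The labels' sexes were checked on Y-linked genes. Eif2s3y was listed at 0 in both t2i XX lines, at 5.21 and 11.3 RPKM in the t2i XY lines, at 28.8 and 21.6 RPKM in the serum XY lines and at 1.37 and 1.64 RPKM in the serum XX lines. The serum XX libraries thus held Y-linked RNA at a low level, and after the fibroblast share was subtracted 383 genes differed between the sexes, or 347 with rescaling. The part of Y-linked or other admixed RNA beyond that share was not tested. All 3 Y-linked genes tested were lower in t2i than in serum, in the XY lines alone too, beside 28.5% of all genes. Against 2i, 2 of the 3 were lower in t2i, beside 3.89% of all genes. The reason was not tested. Of 474 X-linked genes tested, 37 were called (7.81%), 30 of them larger in XX, beside 377 of 12660 autosomal genes (2.98%). Each gene was next set against its mean over all XY lines of the cross, in 2i, t2i, a2i and serum. On that scale, the X-linked median minus the autosomal median was 0.86 in both t2i XX lines and 0.65 and 0.61 in the serum XX lines. It was between -0.01 and 0.03 in the 4 XY lines, which were part of the reference and so lie near 0 by construction. For the sex difference itself, the X-linked median minus the autosomal median was 0.21, and 0.14 after subtraction.

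Dusp9, an X-linked phosphatase that inactivates ERK, was at 103 and 87.2 RPKM in t2i XX, 4.37 and 4.4 RPKM in t2i XY, 177 and 167 RPKM in serum XX and 74.6 and 63 RPKM in serum XY lines. It was lower in t2i in both sexes and much more so in XY lines, with a difference between the sexes of 2.84 (adjusted p = 2.5e-05 in limma). Klhl13, an X-linked ubiquitin ligase adaptor, was at 359 and 324 RPKM in t2i XX against 18.2 and 29.8 RPKM in t2i XY lines, and at 192, 262, 123 and 110 RPKM in serum. Rhox5, an X-linked homeobox gene known to be silenced by methylation, was at 588, 596, 18.1 and 62.1 RPKM in t2i and at 64.3, 400, 392 and 212 RPKM in serum. The t2i XX lines were highest, the t2i XY lines lowest, and the serum XX lines far apart from each other. The difference between the sexes was 4.93 (adjusted p = 0.026).

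Autosomal genes also split by sex. Htra1, a secreted serine protease, was at 47.9 and 60.1 RPKM in t2i XX, at 1.44 and 1.88 RPKM in t2i XY and at 43.4, 76.3, 49.6 and 40.8 RPKM in serum. Only the t2i XY lines were low, and the difference between the sexes was 4.02 (adjusted p = 6.0e-04 in limma). Calb2, the calcium binding protein calretinin, was at 27.5 and 27.6 RPKM in the t2i XY lines and at 0.656 to 2.09 RPKM in the other 6 lines, a difference between the sexes of -3.51 (adjusted p = 1.5e-04). H2-Eb1, a major histocompatibility class II chain, was at 63.4 and 69.6 RPKM in t2i XX, 0.454 and 0.729 RPKM in t2i XY, 3.32 and 8.19 RPKM in serum XX and 1.08 and 0.206 RPKM in serum XY lines.

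In glycolysis the medium difference differed by sex for several genes. Of 15 tested, 7 differed between the sexes, beside 3.15% of all genes, all with the larger value in XX. There were 2 without serum XY line 10, t2i XY line 2 or t2i XX line 1, 3 without serum XX line 46 or serum XY line 16, and 4 without serum XX line 17. The median medium difference was 0.32 in XX and -0.78 in XY lines. Pfkl, a phosphofructokinase, was at 152, 137, 50.5 and 63.1 RPKM in t2i and at 143, 144, 178 and 181 RPKM in serum. The t2i XX lines lay near the serum XX lines, whereas the t2i XY lines were below every other line, and the difference between the sexes was 1.66 (adjusted p = 0.021 in limma). Ldha, lactate dehydrogenase A, was at 1629 and 1262 RPKM in t2i XX, 436 and 503 RPKM in t2i XY and 850 to 1104 RPKM in serum, with a difference between the sexes of 1.83 (adjusted p = 0.0073). Slc2a1, the glucose transporter, gave 1.49. Pfkp, the platelet type phosphofructokinase, went up in both sexes, by 1.22 on average, from 66.1 to 113 RPKM in serum to 178 to 226 RPKM in t2i. The number of genes with such a sex difference rested on single lines, since it was 99 without t2i XY line 2 and 396 without serum XX line 46.

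**Figure D5:**
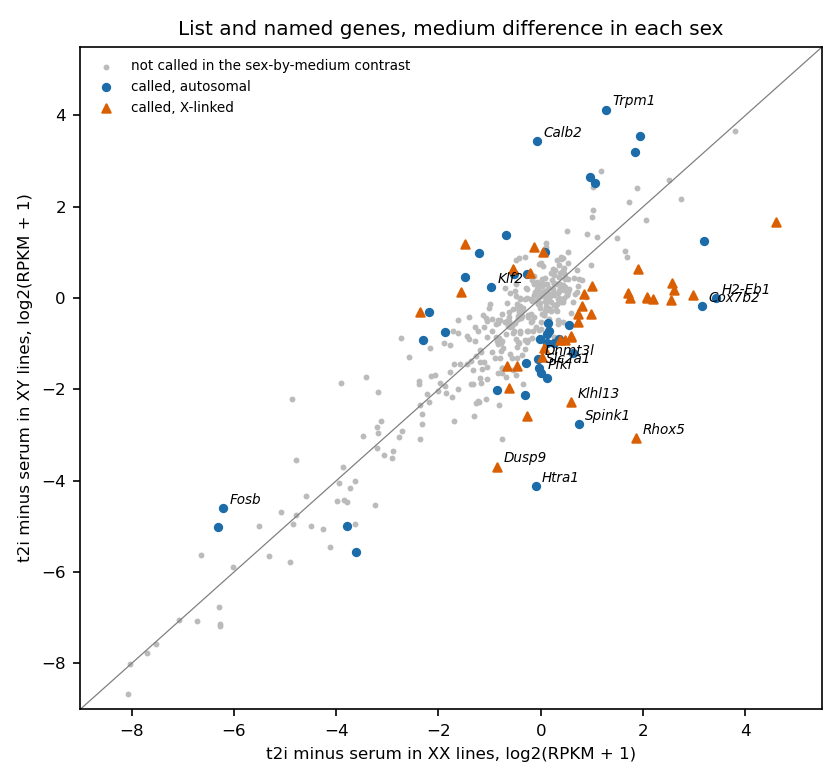
Medium difference in XX lines against that in XY lines, in log2(RPKM + 1), for list genes, named genes and X-linked genes that differed between the sexes. The diagonal marks equal differences. Orange triangles are X-linked and blue dots autosomal genes whose difference between the sexes was called, and grey dots were not called.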

How the data were processed

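RNA was sequenced with a stranded mRNA kit, per the labels' protocols. Per the submitters' processing notes, the authors used the mm10 build and the tools TopHat2 2.1.0, Cufflinks 2.2.1, cutadapt 1.9.1 and Bowtie2 2.2.5, and they deposited RPKM for 21942 loci. The sources used here do not say whether counting used strand, and the depth is unknown. The 62 bisulfite samples were not analysed here.

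From the deposited RPKM, log2(RPKM + 1) was fitted in R 4.3.3 with limma 3.58.1 (moderated, with trend) over 16 libraries of the 129X1/SvJ and C57BL6 cross and 8 medium-by-sex means. Of all genes, 13150 reached 1 RPKM in 2 or more libraries and were tested, with 8 residual degrees of freedom, Benjamini-Hochberg adjustment over all of them and a threshold of 0.05. The contrasts were t2i minus serum averaged over XX and XY, the difference of that contrast between the sexes, and t2i minus 2i. On simulated data, 64.2% of genes changed by 0.5, 91.2% of those changed by 1 and 100% of those changed by 2 on the log2 scale were called, and 0.0849% of unchanged genes. The changed genes averaged about 5 RPKM or more, so changes of lower genes were not assessed. The simulated noise was normal and independent between libraries, and a changed gene had the same shift in every t2i line. Only 67, 68 and 65 of 13150 genes were changed by 0.5, 1 and 2, far fewer than the 43.8% called in the data. The adjusted threshold depends on that share, and no fibroblast RNA was simulated. These rates therefore do not give the share of false or missed calls among the 5757.

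The fibroblast share of a library was the median over 16 genes of its RPKM over the mean of 2 MEF libraries. Genes on Y and the mitochondrial genome have no expected value and were never kept. Of 183 Y loci, 0 were above 0 in the libraries of the MSM cross, XY libraries included. Locus starts were written 1-based.

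The compared lines and the 35 gene lists were chosen with earlier results of these data known. Named genes were the 4 called genes of a list that differed most, plus a set of checks, the 12 most raised and 12 most lowered kept genes without overlap and at 5 RPKM or more, the 6 largest sex differences, and the 6 list genes that differed most from 2i. The most raised and most lowered genes also had to differ in the same direction in XX and XY lines. Predicted genes (Gm and Rik names), pseudogenes and further loci of a gene name were left out of these and of the largest sex differences. Other list members and X-linked genes (among them Egr2, Ier2, Dusp5, Klf2, Tbx3, Dusp9, Klhl13 and Ldha) were named after their values were seen. No H19, Meg3 or Xist entry was matched, and these are not analysed here. Results of 2 single genes that the rule named are not reported here. Some lines of the t2i minus 2i contrast share a number, and the labels do not say whether that means a shared embryo. Alternatives to the pseudocount, filter, scaling, fibroblast rule and set of libraries were tried.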

Additional observations from a re-analysis of the deposited data

Results flagged for a closer look

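For 23 of the 164 named genes, beside 3.15% of all genes, the t2i minus serum difference itself differed between XX and XY lines, tested as XX minus XY with limma on log2(RPKM + 1) at a Benjamini-Hochberg adjusted p under 0.05 over all genes. For the methylation cofactor Dnmt3l the value was 1.28, and for the imprint guardian Zfp57 it was -0.91. Both calls were lost without t2i XY line 2, serum XY line 10 or serum XY line 16, and each in further fits without 1 line. Among immediate early genes Egr1 gave -1.30 and Fosb -1.60, both with higher serum levels in XX lines. The glycolysis genes Pfkl and Slc2a1 gave 1.66 and 1.49. Cyr61, a YAP target that was set aside by the fibroblast rule, gave 1.96, the BMP inhibitor Smad6 gave 1.14, the cyclin Ccnd3 gave 0.89, and Zscan4d, one of several near-identical copies between which reads may be split, gave -1.14. The keratin Krt7 gave -1.89. Without t2i XY line 2, t2i XY line 6 or serum XX line 17, the calls of Smad6, Ccnd3 and Zscan4d were lost. Each was also lost in other fits without 1 line, t2i XX line 1 among them.

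Among the most raised genes, Slc4a5 gave -1.61, Trpm1 -2.85, Fetub -1.35, Klk1 -1.69 and Slc30a2 -1.47, all with the larger rise in XY lines, while Ubd gave 1.94, with the larger rise in XX lines. The 6 genes named for their large sex difference, and so bound to be among the 23, were Rhox5 at 4.93, Htra1 at 4.02, Calb2 at -3.51, Spink1 at 3.50, H2-Eb1 at 3.42 and Cox7b2 at 3.34. Trpm1 was at 6.27 and 10.6 RPKM in the t2i XX lines and at 57.1 and 42.7 RPKM in the t2i XY lines, against 1.64 to 3.84 RPKM in serum. Cox7b2 was at 13 and 12 RPKM in the t2i XX lines and at no more than 1.33 RPKM in the other 6 lines. Each of these values rests on 2 lines per medium and sex.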

How the results depend on the processing

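The 5757 calls between t2i and serum ranged from 4643 to 5207 in the 8 fits without 1 line, and the 3570 kept calls from 2771 to 3089. Calls among named genes ranged from 150 to 153 and among list genes from 202 to 217 in these fits. The calls were 5742 with a pseudocount of 0.1 RPKM, 6755 without a filter and 3923 when 5 RPKM or more was required in 4 libraries. Kept calls were 2752 and 4066 with limits of 10% and 50%, 4000 with the share from MEF-only genes, 3692 and 3448 with MEF library 2 or 4 alone and 4094 with the 2i MEF library. The 414 sex differences ranged from 99 (without t2i XY line 2) to 396 (without serum XX line 46). They were 129 without serum XY line 10, 141 without t2i XY line 6, 179 without serum XX line 17, 196 without t2i XX line 1 and 235 without serum XY line 16. With the 8 t2i and serum libraries alone they were 269. The 1062 differences from 2i ranged from 569 (without t2i XY line 2) to 1045 (without serum XX line 46). They were 575 without t2i XY line 6 and 599 without t2i XX line 1. No 2i line was left out in these fits, and serum lines enter this contrast only through the estimate of spread. The range thus leaves out the weight of single 2i lines. With the highest instead of the median ratio of the fibroblast list, chosen after seeing the data, 1519 calls were kept, with 88 list genes (153 by the median ratio) and 85 named genes (136 by the median ratio). The cause of these changes was not tested, beyond the fewer libraries and the higher share used.

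Of 159 called named genes, 90 were called in every alternative. Direction turned for Lin28b under quantile normalization (0.06), for Jak1 after subtraction (0.26) and with rescaling (0.10), for Hmgcs1 (0.00) and Csk (0.02) after subtraction, for Pfkl (0.01), Lck (-0.04), Calb2 (-0.07) and Spink1 (0.74) in XX lines alone, and for Cox7b2 (-0.18) in XY lines alone. No paired analysis was possible because the t2i and serum lines share no line numbers. For t2i minus 2i, where some lines share a number, a replicate block gave 817 calls at a correlation of -0.169, and the deviations of same-numbered XY lines correlated at 0.00226. Unknown depth limits what can be said of genes near 0.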

Other observations

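G1 cyclins showed 1 line apart from its group. Ccnd2, a D-type cyclin, was at 0.499, 0.553 and 1.26 RPKM in t2i XX lines 1 and 3 and XY line 2 but at 26.4 RPKM in t2i XY line 6, within the 23.4 to 75.6 RPKM of the serum lines. Of 13 cyclins and Cdk inhibitors, 7 were lower in t2i and 1 higher, and Ccnd2 itself was set aside, since 46.5% of its serum level was expected from fibroblasts. Cdkn1b, a Cdk inhibitor, differed by 0.14 (adjusted p = 0.43 in limma).

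Of 10 Polycomb repressive complex 2 genes, 4 were lower and 2 higher, with a median of 0.00, beside 28.5% and 15.3% of all genes. Without t2i XY line 2 or serum XY line 16, and under quantile normalization, 2 were lower. Jarid2, an accessory subunit, was at 46.2, 38.4, 51.1 and 46.2 RPKM in t2i and at 113, 71.3, 70.3 and 61.7 RPKM in serum, without overlap and with a difference of -0.75 (adjusted p = 0.0018 in limma), lost in the XY lines alone. Ezh2, the methyltransferase of the complex, differed by 0.01 (adjusted p = 0.9). Of 7 Src family genes, 2 were higher and 2 lower, beside 15.3% and 28.5% of all genes, and subtraction gave 4 higher and 1 lower. Without t2i XY line 2, t2i XY line 6, serum XX line 46 or serum XY line 10, 1 was higher and 1 lower. Without t2i XX line 1, 1 was higher, and without t2i XX line 3 or serum XX line 17, 1 was lower. Yes1, a Src family kinase, rose by 0.64 (adjusted p = 2.1e-04 in limma) without overlap between the media, a call lost in the XX lines alone.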
